A study of Homo sapiens with 12 samples.

Results

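Keratins, the intermediate filament proteins of epithelial cells, were followed through the 4 groups of a study of lung cancer cells that had survived osimertinib. Every probe set whose annotated gene symbol was KRT followed by a number and at most 1 letter was taken, which left out the keratin-associated proteins and used no measured value. This gave 45 keratin genes with 1 probe set each, among 21448 probe sets in all. H1975 and PC-9 are established lines of human lung adenocarcinoma with a mutated, active form of EGFR, the receptor that osimertinib blocks.

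Each group held 3 arrays. PC-9 SK-216 arrays and H1975 SK-216 arrays came from cells still alive 48 h after 100 µM of SK-216, a compound given only by this code name here, was added to osimertinib-tolerant cells of the line. PC-9 tolerant arrays and H1975 tolerant arrays came from cells that had survived 0.5 µM osimertinib for 1 week and were taken on day 8. By the titles, descriptions and treatment text all 4 groups had been through osimertinib, and by these no group was of cells never given it. One label field of the SK-216 samples has them start from naive cells, against the titles, descriptions and treatment text, which have them start from tolerant cells. Whether osimertinib was kept during SK-216 is not stated. No collection day is given for SK-216 cells. If they started from tolerant cells they were taken later than these, so SK-216 and the added time cannot be told apart. Nothing in the labels says that replicates were separate cultures, so each p-value rests on the spread between arrays alone, and that spread may be technical. Each group is survivors of 1 line, and fewer cells of a kind cannot be told apart from less RNA per cell.

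Keratins build filaments as pairs of 1 acidic type I and 1 basic type II chain. Simple epithelia such as those of the lung typically use KRT8 with KRT18, together with KRT7 and KRT19, while stratified epithelia use pairs such as KRT5 with KRT14 in the basal layer and KRT6 with KRT16 in activated skin. Hair and its inner root sheath have sets of their own. Of the 45 members, 23 were type I and 21 were type II, and KRT222 is a keratin-like gene placed in neither. In the RefSeq gene table, 22 type I genes lie on chromosome 17 and all 21 type II genes on chromosome 12. KRT18, the remaining type I gene, lies on chromosome 12 beside its partner KRT8. KRT7 and KRT80 are neighbours on the same chromosome. Probe sets named KRT6A, KRT6B, KRT12, KRT15, KRT17, KRT20, KRT34, KRT81, KRT82 or KRT86 were not found and these genes were not analysed here. KRT6C, KRT31, KRT33A, KRT33B and KRT83 have near-identical relatives, and KRT8 and KRT18 have many pseudogenes, so their signals may include RNA of such copies.

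Promoter sequences of 4 members that the results below return to are printed. KRT8 is of the simple pair, whose other member KRT18 had no window. KRT4 is of stratified epithelia, and KRT33B and KRT31 are of hair. Each run is the 250 bases before the first listed start of transcription, 5′ to 3′ on the gene's strand, with TATAA in capitals. The source is RefSeq on GRCh38.p14. Other starts of a gene, which may be the ones used in these cells, were not searched. The windows are chr12:52926470-52926719 for KRT8, chr12:52814117-52814366 for KRT4, chr17:41369814-41370063 for KRT33B and chr17:41397609-41397858 for KRT31, all on the minus strand.
KRT8: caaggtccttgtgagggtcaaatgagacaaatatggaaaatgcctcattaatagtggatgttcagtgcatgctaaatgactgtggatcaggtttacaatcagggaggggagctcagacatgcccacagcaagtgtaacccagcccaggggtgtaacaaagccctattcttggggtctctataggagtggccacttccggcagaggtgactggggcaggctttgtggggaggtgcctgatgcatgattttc
KRT4: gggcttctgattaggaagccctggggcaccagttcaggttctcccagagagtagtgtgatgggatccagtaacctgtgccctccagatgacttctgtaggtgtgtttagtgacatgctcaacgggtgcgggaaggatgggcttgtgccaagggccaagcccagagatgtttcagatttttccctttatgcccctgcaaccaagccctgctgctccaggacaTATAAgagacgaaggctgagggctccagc
KRT33B: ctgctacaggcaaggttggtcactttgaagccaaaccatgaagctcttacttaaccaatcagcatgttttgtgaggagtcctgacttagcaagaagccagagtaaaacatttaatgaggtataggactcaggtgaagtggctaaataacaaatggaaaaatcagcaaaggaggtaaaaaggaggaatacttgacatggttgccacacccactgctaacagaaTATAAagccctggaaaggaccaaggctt
KRT31: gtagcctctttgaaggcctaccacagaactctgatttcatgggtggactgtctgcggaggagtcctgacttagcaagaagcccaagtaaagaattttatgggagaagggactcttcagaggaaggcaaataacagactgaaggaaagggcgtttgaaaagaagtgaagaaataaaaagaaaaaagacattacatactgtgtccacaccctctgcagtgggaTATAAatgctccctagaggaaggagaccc

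The KRT8 window held no TATAA on either strand. In KRT4 and in KRT31 it lay 25 to 29 bases before the start, and in KRT33B 24 to 28 bases before it. KRT31 and KRT33B also shared a run of 26 bases, gaggagtcctgacttagcaagaagcc, starting 194 bases before the start of KRT31 and 178 bases before that of KRT33B, which occurred in these 2 of 27305 promoters. A window was at hand for 30 of the 45 members, but for none of KRT7, KRT18, KRT19 and KRT80. Searched on both strands, TATAA occurred in 22 of these 30 windows (73.3%), against 19.6% of the 27305. TATAAA, which contains it, occurred in 18 (60%), against 11.1%. GGGCGG occurred in 4 (13.3%), against 42.3%, and TGANTCA in 0, against 6.6%. These matches are descriptions of letters and not of binding.

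Signals are log2 values as deposited, and levels of different probe sets are not compared. To mark where a signal is no higher than that of genes not expected in these cells, 348 olfactory receptor probe sets were used. Their median was 3.61 and their 95th percentile 5.06. The mean over the 12 arrays lay above that percentile for 15 of the 45 keratins. These were 4 of 5 simple keratins (KRT7, KRT8, KRT18 and KRT19), 7 of 17 keratins of stratified epithelia (KRT4, KRT6C, KRT16, KRT76, KRT77, KRT78 and KRT80), 1 of 9 of the inner root sheath and companion layer (KRT71), 2 of 13 hair keratins (KRT31 and KRT35), and KRT222. The other 30, among them the basal pair KRT5 and KRT14 and the simple keratin KRT23, were at or below it, with means between 3.16 and 4.94. For those, a difference between groups is a difference within the range of olfactory receptor signals. Nearest the line were KRT222, with a mean of 5.14, and KRT79, with a mean of 4.94.

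**Figure D1:**
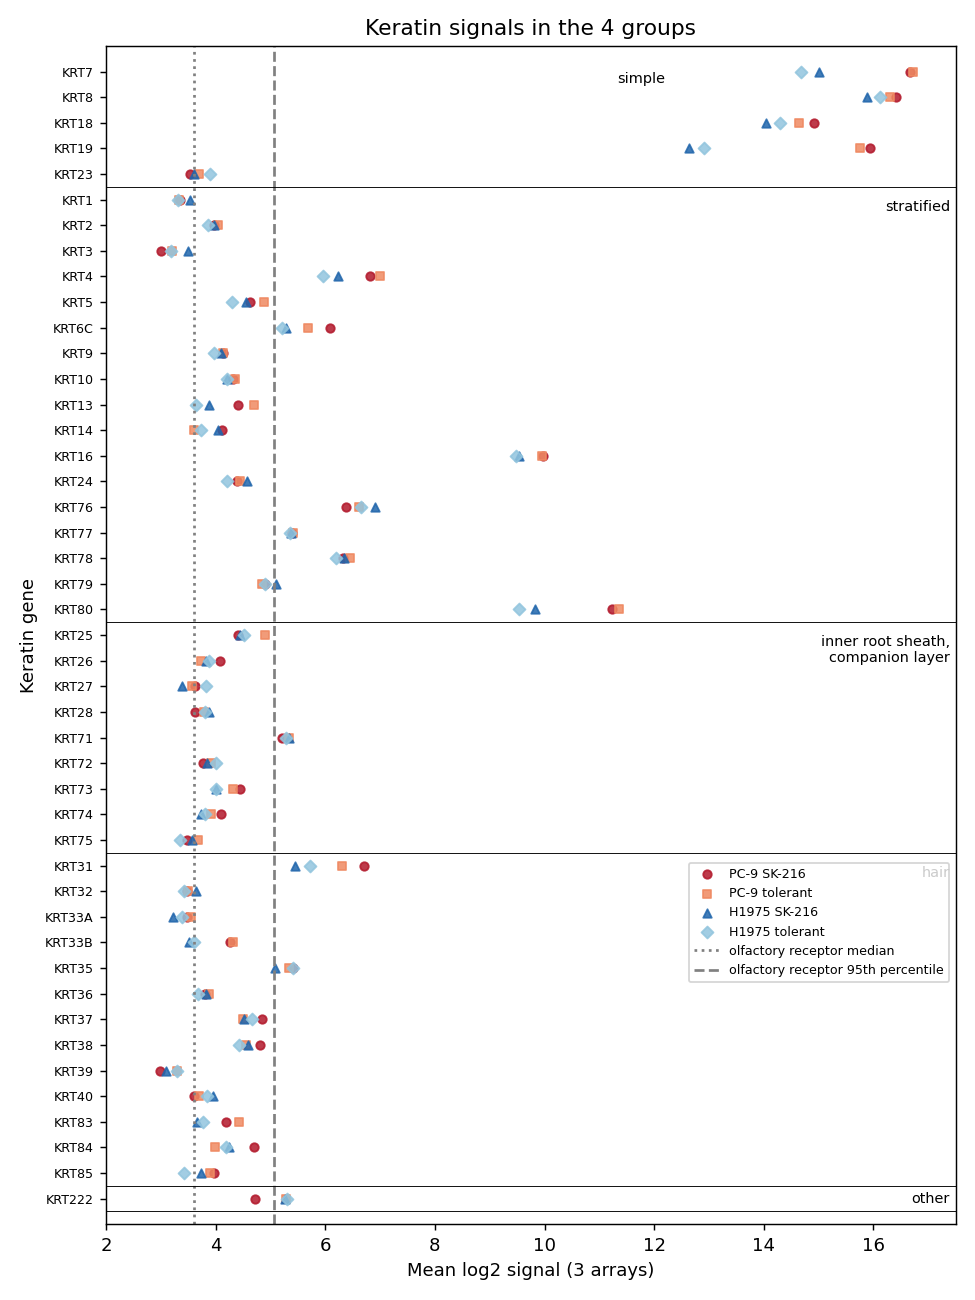
Mean log2 signal over 3 arrays (x axis) of each of the 45 keratins (rows, grouped by class) in PC-9 SK-216, PC-9 tolerant, H1975 SK-216 and H1975 tolerant cells. The dotted and dashed lines mark the median (3.61) and 95th percentile (5.06) of 348 olfactory receptor probe sets, and 30 keratins had a mean over all arrays at or below the dashed line.

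The plot of all keratins by group puts each symbol's 4 means on 1 row. On the rows of KRT19, KRT7 and KRT80 the 2 lines stand apart, and on most rows below the simple keratins the 4 marks lie close to the olfactory receptor lines.

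The largest keratin differences lay between the lines. KRT19, a small type I keratin without the usual tail domain, had signals of 15.63, 15.84 and 15.82 in tolerant PC-9 cells, against 13.09, 12.68 and 12.96 in tolerant H1975 cells. After SK-216 it had 15.97, 15.90 and 15.97 in PC-9 cells, against 12.79, 12.70 and 12.41 in H1975 cells. Every PC-9 array was above every H1975 array. The log2 difference, PC-9 minus H1975, was 2.85 ± 0.10 in tolerant cells, or 7.23-fold, and 3.31 ± 0.10 after SK-216, or 9.94-fold (± is the standard error of the limma fit, n = 3 arrays per group, here and below). The Benjamini-Hochberg adjusted p over all probe sets was 3.90e-17 in tolerant cells and 2.08e-18 after SK-216.

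KRT7, a type II keratin of simple and glandular epithelia, showed the same order. It had 16.56, 16.88 and 16.71 in tolerant PC-9 cells, against 14.79, 14.55 and 14.70 in tolerant H1975 cells. After SK-216 the signals were 16.66, 16.75 and 16.60 in PC-9 cells, against 15.12, 15.02 and 14.88 in H1975 cells. The groups did not overlap in either state. The difference was 2.04 ± 0.08 in tolerant cells (4.10-fold, limma adjusted p = 5.73e-16) and 1.66 ± 0.08 after SK-216 (3.17-fold, limma adjusted p = 3.02e-14).

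KRT80, a type II keratin found in several epithelia and the neighbour of KRT7, had 11.55, 11.23 and 11.30 in tolerant PC-9 cells, against 9.47, 9.70 and 9.46 in tolerant H1975 cells. After SK-216 it had 11.08, 11.19 and 11.40 in PC-9 cells, against 9.80, 9.56 and 10.13 in H1975 cells. All 6 PC-9 arrays lay above all 6 H1975 arrays. The difference was 1.82 ± 0.15 in tolerant cells (3.52-fold, limma adjusted p = 1.33e-10) and 1.39 ± 0.15 after SK-216 (2.63-fold, limma adjusted p = 1.41e-08).

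The simple pair KRT8 and KRT18 differed less. KRT8 had 16.35, 16.29 and 16.27 in tolerant PC-9 cells, against 16.10, 16.13 and 16.15 in tolerant H1975 cells, and KRT18 had 14.57, 14.64 and 14.73 in tolerant PC-9 cells, against 14.32, 14.24 and 14.33 in tolerant H1975 cells. Neither gene's groups overlapped. The difference in tolerant cells was 0.18 ± 0.06 for KRT8 (limma adjusted p = 0.0219) and 0.35 ± 0.07 for KRT18 (limma adjusted p = 0.000378). The KRT8 call ended without H1975 tolerant replicate 1 or PC-9 tolerant replicate 1, with a highest adjusted p of 0.0751, with median centring (0.0750) and without a variance trend (0.224). After SK-216 the difference was 0.52 ± 0.06 for KRT8 (limma adjusted p = 1.20e-07) and 0.87 ± 0.07 for KRT18 (limma adjusted p = 5.23e-10).

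**Figure D2:**
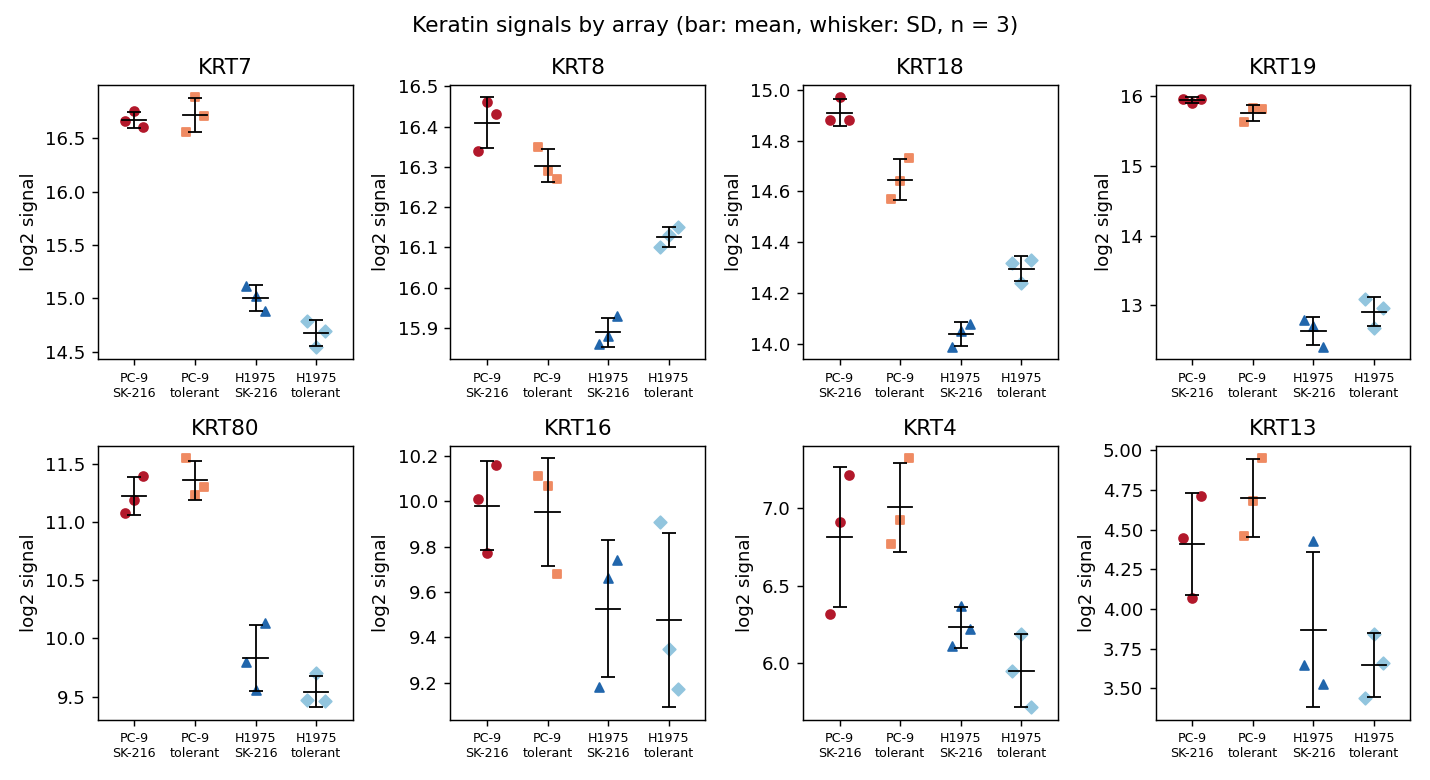
Log2 signal (y axis) of named keratins on each of the 3 arrays (points) of PC-9 SK-216, PC-9 tolerant, H1975 SK-216 and H1975 tolerant cells, with the group mean as a bar, the SD as whiskers and a y axis of its own in each panel. KRT7, KRT19 and KRT80 were higher on every PC-9 array than on any H1975 array.

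The panels of signals by array also show KRT8 and KRT18, whose PC-9 and H1975 points stand farther apart in SK-216 arrays than in tolerant arrays.

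Of the 45 keratins, 12 were higher in tolerant PC-9 cells at a limma adjusted p below 0.05 and 0 were lower. An unadjusted p below 0.05 was found for 13 (against 48.5% of all probe sets). Over all probe sets 21.3% were higher and 22.7% lower, so the 26.7% of keratins that were higher lay a little above the background. With probe sets at olfactory receptor level left out of the fit, 7 of 15 keratins were higher and 0 lower. There 4258 of 13960 probe sets were higher and 4679 lower. The median difference of the 45 was 0.16, against 0.02 over all probe sets. Groups did not overlap for 14 keratins (31.1%), against 50.2% of all probe sets. Beside the 5 genes above, the 12 held KRT4, KRT13, KRT16, KRT5, KRT33B, KRT83 and KRT85. By class they were 4 of 5 simple keratins, 5 of 17 of stratified epithelia, 3 of 13 hair keratins and none of the 9 of the inner root sheath and companion layer, where the limma fit had no unadjusted p below 0.05 either.

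KRT4 and KRT13 are the pair of wet stratified epithelia such as the oesophagus. KRT4 had 6.77, 6.92 and 7.32 in tolerant PC-9 cells, against 5.95, 6.19 and 5.72 in tolerant H1975 cells, without overlap and with a difference of 1.05 ± 0.23 (limma adjusted p = 0.000502). KRT13 had 4.46, 4.68 and 4.95 in tolerant PC-9 cells, against 3.44, 3.84 and 3.66 in tolerant H1975 cells, also without overlap, with a difference of 1.05 ± 0.24 (limma adjusted p = 0.000690). All KRT13 signals were below the olfactory receptor percentile of 5.06.

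After SK-216 the KRT4 groups overlapped, with 6.32, 6.91 and 7.21 in PC-9 cells against 6.11, 6.37 and 6.22 in H1975 cells. The difference was 0.58 ± 0.23 (limma adjusted p = 0.0450), a call that ended in 6 of the 12 fits without 1 array. Those were the fits without H1975 SK-216 replicate 1, 2 or 3, PC-9 SK-216 replicate 2 or 3, or H1975 tolerant replicate 1, with a highest adjusted p of 0.250. The call also ended with quantile normalization (0.0674) and median centring (0.0669). KRT13 had a difference of 0.54 ± 0.24 after SK-216 and was not called (limma adjusted p = 0.0719). It was called without PC-9 SK-216 replicate 2 (0.0318) and without H1975 SK-216 replicate 2, where the difference was 0.82 (0.00660).

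KRT16, a type I keratin of activated and rapidly renewing epidermis, had 10.11, 10.07 and 9.68 in tolerant PC-9 cells, against 9.91, 9.35 and 9.17 in tolerant H1975 cells. The groups overlapped, and the difference of 0.48 ± 0.18 (limma adjusted p = 0.0391) ended as a call without H1975 tolerant replicate 2 or 3 or PC-9 tolerant replicate 1 or 2, with a highest adjusted p of 0.218. That KRT16 call also ended without a variance trend (0.0886), with median centring (0.0609) and with array weights (0.0724). KRT5, the type II keratin of basal cells, had 4.90, 5.03 and 4.69 in tolerant PC-9 cells, against 4.45, 4.36 and 4.06 in tolerant H1975 cells. Its difference of 0.58 ± 0.23 (limma adjusted p = 0.0383) ended as a call without the same 4 arrays, with a highest adjusted p of 0.160, and with quantile normalization (0.0617), median centring (0.0538) or array weights (0.0503). Its basal partner KRT14 was not called between the lines in either state. After SK-216 the difference between the lines was 0.07 for KRT5 and 0.45 for KRT16, neither called. The KRT16 groups did not overlap there, and its difference passed in 7 of the 12 fits without 1 array and in 4 other alternatives.

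The 3 hair keratins called in tolerant cells were all at or below the olfactory receptor percentile. KRT33B averaged 4.31 in tolerant PC-9 cells and 3.61 in tolerant H1975 cells, a difference of 0.70 ± 0.22 (limma adjusted p = 0.010). KRT83 averaged 4.43 in tolerant PC-9 cells and 3.77 in tolerant H1975 cells, a difference of 0.66 ± 0.20 (limma adjusted p = 0.00946), which ended as a call without PC-9 tolerant replicate 2 (adjusted p = 0.0790). KRT85 averaged 3.90 in tolerant PC-9 cells and 3.42 in tolerant H1975 cells, a difference of 0.48 ± 0.18 (limma adjusted p = 0.0307). That call ended without H1975 tolerant replicate 1 or 3 or PC-9 tolerant replicate 3, with a highest adjusted p of 0.155. In all, 7 of the 12 called keratins were above the percentile and 5 were not.

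In SK-216 arrays, which are other arrays than the tolerant ones, 10 of 45 keratins were higher in PC-9 cells (22.2%, against 21.6% of all probe sets) and 2 were lower (4.44%, against 22.2%). The median difference was 0.12, against -0.04 over all probe sets, and the groups of 15 keratins (33.3%) did not overlap, against 50.6%. The same 8 keratins were higher in PC-9 cells in both states: KRT7, KRT8, KRT18, KRT19, KRT80, KRT4, KRT33B and KRT83. Another 4 passed in tolerant arrays alone, 4 in SK-216 arrays alone, and 29 in neither, which does not show that these differ with SK-216. The difference had the same sign in both states for 30 of the 45, a count for which the share over all probe sets was not taken.

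The 4 that passed in SK-216 arrays alone were KRT31, KRT6C, KRT3 and KRT76, of which all but KRT6C were named after their values were seen. KRT31, a type I keratin of the hair cortex, had 6.18, 7.30 and 6.65 in PC-9 SK-216 cells, against 5.78, 4.75 and 5.81 in H1975 SK-216 cells. These groups did not overlap and differed by 1.26 ± 0.35 (limma adjusted p = 0.00457), while tolerant arrays of the lines overlapped and passed only without PC-9 tolerant replicate 1 (0.0140). Its arrays were also spread widely within groups, from 5.39 to 7.08 in tolerant PC-9 cells. KRT6C, a type II keratin of the KRT6 group, had 5.90, 6.23 and 6.13 in PC-9 SK-216 cells, against 5.43, 5.00 and 5.40 in H1975 SK-216 cells, a difference of 0.81 ± 0.21 (limma adjusted p = 0.00293). Its tolerant groups did not overlap and differed by 0.47. That difference passed only without a variance trend (limma adjusted p = 0.0379) or without H1975 tolerant replicate 1 (0.0434).

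Both keratins that were lower in PC-9 cells are type II. KRT76, of the palate and other oral epithelia, had 6.61, 6.19 and 6.32 in PC-9 SK-216 cells, against 6.76, 6.77 and 7.20 in H1975 SK-216 cells, a difference of -0.54 ± 0.21 (limma adjusted p = 0.0398). KRT3, of the cornea, had 2.99, 2.91 and 3.10 in PC-9 SK-216 cells, against 3.67, 3.27 and 3.55 in H1975 SK-216 cells, a difference of -0.50 ± 0.17 (limma adjusted p = 0.0164), all at olfactory receptor level. Leaving out single arrays ended the call for KRT76 (H1975 SK-216 replicate 3 or PC-9 SK-216 replicate 2 or 3, highest adjusted p 0.192), for KRT3 (H1975 SK-216 replicate 1 or PC-9 SK-216 replicate 2, 0.0761), for KRT33B (H1975 SK-216 replicate 2, 0.0697), and for KRT83 (replicate 1 or 3 of either SK-216 group, 0.126). Median centring also ended the KRT83 call (0.0551).

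**Figure D3:**
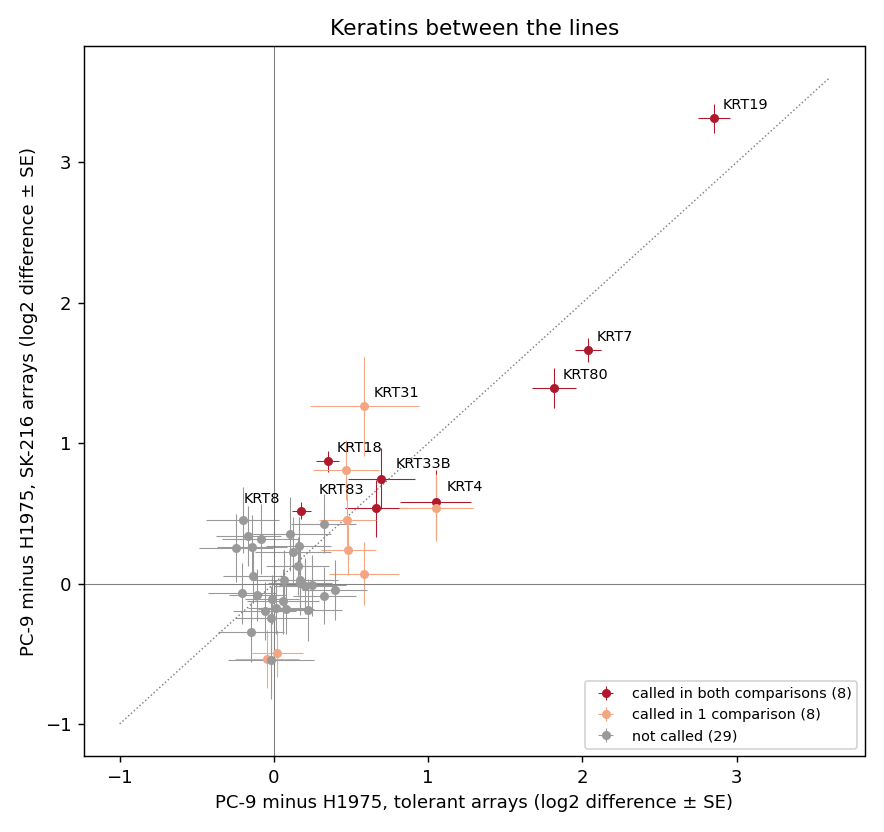
Log2 difference, PC-9 minus H1975, of the 45 keratins in tolerant arrays (x axis) and in SK-216 arrays (y axis), with standard errors of the fit as whiskers and the line of equal values dotted. Colours give the 8 keratins called in both comparisons, the 8 called in 1 and the 29 called in neither, and KRT19, KRT7 and KRT80 lie farthest from 0 in both.

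The plot of the line difference in both states uses disjoint arrays on its axes. KRT8 and KRT18 lie above its dotted line and KRT7 below it.

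In H1975 cells SK-216 went with small changes of simple keratins, in both directions. KRT7 rose: it had 15.12, 15.02 and 14.88 after SK-216, against 14.79, 14.55 and 14.70 in tolerant cells, so that every SK-216 array was above every tolerant array. The difference was 0.33 ± 0.08, or 1.25-fold (limma adjusted p = 0.0278). KRT8 fell: it had 15.86, 15.88 and 15.93 after SK-216, against 16.10, 16.13 and 16.15 in tolerant cells, again without overlap. Its difference was -0.24 ± 0.06, which is 0.849 of the tolerant level (limma adjusted p = 0.0287).

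KRT18, the partner of KRT8, had 13.99, 14.05 and 14.08 in H1975 cells after SK-216, against 14.32, 14.24 and 14.33 in tolerant cells. The groups did not overlap, but the difference of -0.26 ± 0.07 had a limma adjusted p of 0.0570. KRT19 had 12.79, 12.70 and 12.41 after SK-216, against 13.09, 12.68 and 12.96 in tolerant cells, which overlap, with a difference of -0.28 ± 0.10 (limma adjusted p = 0.173). KRT23, the remaining simple keratin, was at olfactory receptor level and overlapped between the groups.

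So 2 of 45 keratins were called in H1975 cells (4.44%), against 3.80% of all probe sets, a share near the background. The 1 higher and 1 lower call stand against 1.44% and 2.35% of all probe sets. These shares count the 30 keratins at or below the olfactory receptor percentile. With probe sets at that level left out of the fit, 3 of 15 keratins were called, where 937 of 13960 probe sets were. An unadjusted p below 0.05 was found for 4 keratins, all of them simple, against 14.2% of all probe sets. The median difference was 0.06, against 0.01 over all probe sets, and the range was -0.44 to 0.36. Groups did not overlap for 6 keratins (13.3%), against 18.5% of all probe sets. Among the 17 keratins of stratified epithelia 16 had a positive difference, with a median of 0.21, yet the limma fit called 0 and 0 had an unadjusted p below 0.05. The share of all probe sets with a positive difference was not taken, and 10 of the 17 were at or below the olfactory receptor percentile. KRT80, among those with a positive difference, had 0.29 ± 0.15 and overlapping groups, and KRT16 had 0.05 ± 0.18.

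Both calls ended in some of the fits without 1 array. The values kept their sign there, from 0.26 to 0.39 for KRT7 and from -0.26 to -0.22 for KRT8. KRT7 was no longer called without H1975 tolerant replicate 2 or 3 or H1975 SK-216 replicate 1 or 2, with a highest adjusted p of 0.166. KRT8 was no longer called without any 1 of the 3 H1975 tolerant arrays or without H1975 SK-216 replicate 1 or 2, with a highest adjusted p of 0.121. KRT18 was called without PC-9 tolerant replicate 1 (adjusted p = 0.0426), and KRT19 without H1975 tolerant replicate 2 (0.0400). With eBayes lacking a variance trend the adjusted p was 0.295 for KRT7 and 0.376 for KRT8, and with H1975 fitted alone it was 0.0543 for KRT7 and 0.0758 for KRT8. Filters on dim probe sets brought KRT18 past the threshold (0.0443 and 0.0423).

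In PC-9 cells no keratin was called after SK-216, where 0.443% of all probe sets were (0.373% higher and 0.0699% lower). With the same limma fit 4 of 45 had an unadjusted p below 0.05, against 10.9% of all probe sets, and every alternative tried also gave 0 calls. The median difference was -0.04, against -0.003 over all probe sets, and the range was -0.56 to 0.71. Groups did not overlap for 9 keratins (20%), against 15.0% of all probe sets.

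KRT18 had 14.88, 14.97 and 14.88 in PC-9 cells after SK-216, against 14.57, 14.64 and 14.73 in tolerant cells. Every SK-216 array was above every tolerant array, with a difference of 0.26 ± 0.07 and a limma adjusted p of 0.155. KRT8 had 16.34, 16.46 and 16.43 after SK-216, against 16.35, 16.29 and 16.27 in tolerant cells, which overlap, with a difference of 0.11 ± 0.06 and a 95% interval of -0.02 to 0.23.

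KRT7 in PC-9 cells had a difference of -0.05 ± 0.08 with SK-216, with a 95% interval of -0.22 to 0.13. KRT19 had 0.18 ± 0.10 without overlap of the groups and an adjusted p of 0.546 in the limma fit. The other 3 genes with an unadjusted p below 0.05 were all at or below the olfactory receptor percentile, and KRT84 and KRT25 among them were named after their values were seen. KRT14 differed by 0.51 ± 0.20, the hair keratin KRT84 by 0.71 ± 0.23 and KRT25, of the inner root sheath, by -0.51 ± 0.21, with limma adjusted p-values of 0.324, 0.229 and 0.378.

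**Figure D4:**
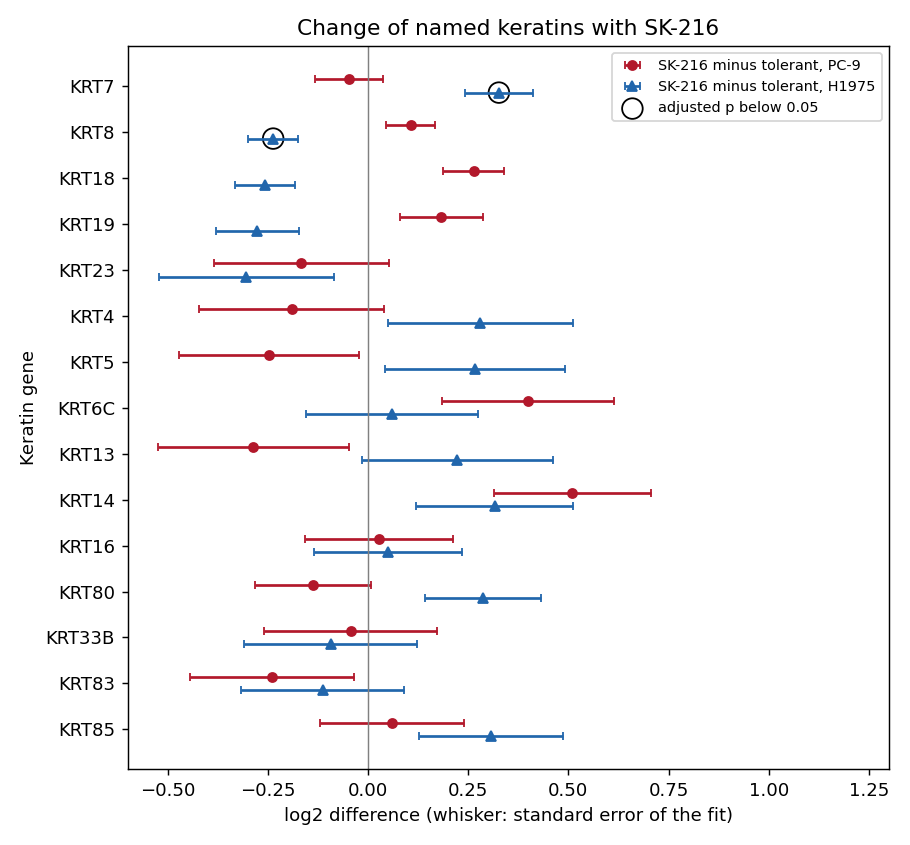
Log2 difference, SK-216 minus tolerant (x axis), of named keratins (rows) in PC-9 and H1975 cells, with standard errors of the fit as whiskers and a ring around values with an adjusted p below 0.05. The rings are on KRT7 and KRT8 in H1975 cells. KRT8, KRT18 and KRT19 lie above 0 in PC-9 and below 0 in H1975 cells, and KRT4, KRT5, KRT7, KRT13 and KRT80 the reverse.

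The plot of SK-216 differences sets the lines side by side for each named keratin, and the difference between the lines was tested in the same fit. The simple pair changed differently in the lines between tolerant and SK-216 arrays: the change in PC-9 cells minus the change in H1975 cells was 0.52 ± 0.11 for KRT18 (limma adjusted p = 0.00951) and 0.34 ± 0.09 for KRT8 (limma adjusted p = 0.0476). KRT18 averaged 14.91 after SK-216 and 14.65 in tolerant PC-9 cells, while it averaged 14.04 after SK-216 and 14.30 in tolerant H1975 cells. These were the 2 of 45 keratins called (4.44%), both with a positive difference, against 1.42% of all probe sets in either direction and 1.09% with a positive one. KRT19 had a difference of 0.46 ± 0.15 and KRT7 one of -0.37 ± 0.12, with limma adjusted p-values of 0.130 and 0.134. An unadjusted p below 0.05 was found for 5 keratins, against 12.7% of all probe sets. The median over the 45 was -0.13, against -0.01 over all probe sets.

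The KRT18 call held in each of the 12 fits that left out 1 array, with adjusted p-values between 0.0126 and 0.0374, and was lost without a variance trend (0.208). The KRT8 call ended in 11 of those 12 fits, the exception being the one without PC-9 tolerant replicate 1, with a highest adjusted p of 0.124, and was also lost without a variance trend (0.418), with quantile normalization (0.0751) and with median centring (0.0612). KRT7 was called with quantile normalization (0.0488). KRT19 was called without H1975 tolerant replicate 2 (0.0387).

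Genes of 4 related lists give the setting of these keratins. Of 20 desmosome and keratin linker genes, which tie keratin filaments to cell contacts, 11 were higher and 2 lower in tolerant PC-9 than in tolerant H1975 cells, with a median of 0.57, where 21.3% of all probe sets were higher and 22.7% lower, with a median of 0.02. After SK-216 10 were higher and 1 lower, where 21.6% of all probe sets were higher and 22.2% lower. JUP, the plakoglobin of desmosomes and adherens junctions, averaged 14.73 ± 0.16 in tolerant PC-9 cells and 11.22 ± 0.13 in tolerant H1975 cells (SD, n = 3), a difference of 3.50 ± 0.11 (limma adjusted p = 1.76e-18). With SK-216 JUP fell in H1975 cells, with a mean of 10.51 ± 0.20 after SK-216 and 11.22 ± 0.13 in tolerant cells (SD, n = 3), a difference of -0.71 ± 0.11 (limma adjusted p = 0.000167). It was the single gene of the list called in either line. In PC-9 cells its difference was -0.05 ± 0.11, and the difference between the lines was 0.67 ± 0.15 (limma adjusted p = 0.0228). That last call ended in 8 of the 12 fits without 1 array, those without replicate 1 or 3 of either H1975 group, PC-9 tolerant replicate 3 or any PC-9 SK-216 array, with a highest adjusted p of 0.0898. It also ended without a variance trend (0.194) and with quantile normalization (0.0506).

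DSP, the desmoplakin that anchors keratins to desmosomes, differed by -0.02 ± 0.11 with SK-216 in H1975 cells and by -0.01 ± 0.11 in PC-9 cells. It was lower in PC-9 than in H1975 tolerant cells by a log2 difference of -0.35 ± 0.11 (limma adjusted p = 0.0113). That call ended without H1975 tolerant replicate 1 or PC-9 tolerant replicate 2, with a highest adjusted p of 0.116, and without a variance trend (0.0626). PLEC, the linker plectin, had differences of -0.36 ± 0.15 in H1975 and -0.38 ± 0.15 in PC-9 cells with SK-216, neither called (limma adjusted p = 0.237 and 0.332).

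Among 14 other intermediate filament genes none was called with SK-216 in either line. Between the lines 3 of the 14 were higher and 5 lower in PC-9 cells in both states, shares not far from the 21.3% and 22.7% of all probe sets in tolerant cells and the 21.6% and 22.2% after SK-216. VIM, the vimentin of mesenchymal cells, averaged 9.36 ± 0.43 in tolerant PC-9 cells and 15.75 ± 0.03 in tolerant H1975 cells (SD, n = 3), a difference of -6.39 ± 0.14 (limma adjusted p = 3.66e-21). With SK-216 its difference was 0.21 ± 0.14 in PC-9 and 0.01 ± 0.14 in H1975 cells.

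Of 9 genes of keratin binding and filament turnover, 6 were higher and 1 lower in tolerant PC-9 cells, with a median of 0.63, against 21.3% higher and 22.7% lower among all probe sets. EPPK1, the linker epiplakin, rose with SK-216 in H1975 cells, with a mean of 7.74 ± 0.48 after SK-216 and 6.75 ± 0.08 in tolerant cells (SD, n = 3), a difference of 0.99 ± 0.23 (limma adjusted p = 0.0115) that was not called without H1975 SK-216 replicate 1 (0.104) or without a variance trend (0.0778). HSPB1, a small heat shock protein, was named after its values were seen. Its SK-216 difference was 0.21 ± 0.08 in PC-9 and -0.29 ± 0.08 in H1975 cells, and the lines differed by 0.50 ± 0.12 (limma adjusted p = 0.0310), a call that ended in 9 of the 12 fits without 1 array. Those were all but the fits without replicate 2 of either H1975 group or of tolerant PC-9 cells, with a highest adjusted p of 0.106. The HSPB1 call also ended without a variance trend (0.314) and with quantile normalization (0.118), while its H1975 difference passed in 4 fits without 1 array and with either filter on dim probe sets (0.0447 and 0.0410).

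Of 19 squamous and cornification genes, 5 were higher and 2 lower in tolerant PC-9 cells, with a median of 0.17. The share higher was near the 21.3% of all probe sets, and 22.7% of these were lower. SPRR2D, a precursor of the cornified envelope, was the single gene of that list called with SK-216. It averaged 4.92 ± 0.42 after SK-216 and 3.99 ± 0.41 in tolerant H1975 cells (SD, n = 3), within the olfactory receptor range, a difference of 0.93 ± 0.24 (limma adjusted p = 0.0253). The call ended without H1975 tolerant replicate 1 or 2 or H1975 SK-216 replicate 1 or 2, with a highest adjusted p of 0.170. It also ended without a variance trend (0.0609) and with H1975 fitted alone (0.0539). TP63, the squamous and basal cell factor, was not analysed here.

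The 12 arrays had medians between 6.56 and 6.62, and arrays of a group correlated across probe sets at r between 0.993 and 0.995. Of 7 lung adenocarcinoma markers, EPCAM, CDH1, CLDN4 and MUC1 were above the olfactory receptor percentile in all groups. The lineage markers NKX2-1, NAPSA and SFTPB had group means between 3.40 and 5.19, within or just above the olfactory receptor range. NAPSA, between 3.40 and 3.96, was near the olfactory receptor median of 3.61. The summed log2 level of the 7 ran from 62.31 to 63.21 in PC-9 SK-216 arrays and from 62.07 to 63.34 in tolerant PC-9 arrays, and from 46.26 to 48.12 in H1975 SK-216 arrays and from 47.46 to 49.39 in tolerant H1975 arrays. With the keratin changes in H1975 cells, CDH1 averaged 6.04 after SK-216 and 7.58 in tolerant cells, and EPCAM 8.95 after SK-216 and 8.18 in tolerant cells. Their part in the keratin results was not tested. The 5 measured fibroblast markers summed to between 30.56 and 31.37 in H1975 SK-216 arrays and between 31.68 and 32.85 in tolerant H1975 arrays. Of these 5, 3 were above the olfactory receptor percentile in every group. COL1A1 averaged 7.98 in H1975 SK-216 cells and 8.95 in tolerant H1975 cells, and 6.26 in PC-9 SK-216 cells and 6.25 in tolerant PC-9 cells. The 5 leukocyte markers, 3 of them above the percentile in every group, summed to between 29.75 and 30.50 in PC-9 SK-216, 30.48 and 30.57 in PC-9 tolerant, 31.03 and 31.91 in H1975 SK-216, and 30.97 and 31.70 in H1975 tolerant arrays. CD68 averaged between 11.60 and 12.26 in the 4 groups. Of 6 endothelial markers, 4 were above the percentile in PC-9 and 2 in H1975 cells, with sums between 29.59 and 30.98 in PC-9 SK-216, 30.48 and 30.71 in PC-9 tolerant, 26.75 and 28.18 in H1975 SK-216, and 27.27 and 27.73 in H1975 tolerant arrays. CDH5 averaged 7.10 in PC-9 SK-216 and 7.47 in PC-9 tolerant cells, and 4.84 in both H1975 groups. PTPRC, PECAM1, DCN and LUM had group means between 3.75 and 4.74, at olfactory receptor level. Their part, too, was not tested.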

How the data were processed

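RNA of 12 samples in 4 groups of 3 was measured on a 1-colour whole-transcript array with 250 ng of RNA each, per the labels. The authors deposited 1 log2 signal for each probe set and array, from 2.19 to 18.61, and these were used unaltered. Per the submitters' processing notes the tool was Transcriptome Analysis Console. Its version, the summarisation and the normalization are not stated in those sources. Precision is limited by the number of arrays.

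Probe sets were named from the platform annotation. All 45 keratin identifiers were found in the RefSeq table (GRCh38.p14) under the same symbol, and none of these probe sets had values identical to another's. Members, lists and the rule for named genes were chosen with earlier results of these data known. The rule took all keratins called with SK-216 or in its difference between lines, the 10 largest line differences per direction among keratins called in tolerant cells, a fixed set of epithelial keratins, up to 4 called genes per related list, and VIM, DSP, PLEC and TP63.

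Group means of all 12 arrays were fitted in R 4.3.3 with limma 3.58.1, using eBayes and a variance trend (8 residual and 15.0 prior degrees of freedom). Tests were two-sided with Benjamini-Hochberg adjustment over 21448 probe sets, and an adjusted p below 0.05 was a call. The fit was also run on simulated data with planted differences and noise drawn from its own variances. That tests the code and not the calls made on these arrays. Differences are SK-216 minus tolerant, or PC-9 minus H1975. Alternatives were eBayes without a trend or robust, 1 line alone, replicate blocks, filters on dim probe sets, quantile normalization, median centring, array weights, a threshold of 0.01, and leaving out each array. Motifs were counted as exact letters in the first listed promoter of each gene. Figures were drawn with matplotlib 3.10.9.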

Additional observations from a re-analysis of the deposited data

Results flagged for a closer look

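The change of the simple pair between tolerant and SK-216 arrays differed between the lines by the test of the difference itself. In that change SK-216 and any later collection cannot be told apart. For KRT18 the change in PC-9 cells minus that in H1975 cells was 0.52 on the log2 scale (limma adjusted p = 0.00951), with a change of 0.26 in PC-9 and -0.26 in H1975 cells. For KRT8 it was 0.34 (limma adjusted p = 0.0476), with a change of 0.11 in PC-9 and -0.24 in H1975 cells. Of these 4 changes within a line, the one of KRT8 in H1975 cells was called. The KRT8 difference was lost in 11 of 12 fits without 1 array (highest adjusted p 0.124), and that of KRT18 in none of these 12, while both were lost without a variance trend (0.418 and 0.208).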

How the results depend on the processing

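With 3 arrays a group, the calls of small SK-216 changes of bright keratins all ended without a variance trend. Those of KRT7 and KRT8 also ended in some fits without 1 array. The 2 keratins called with SK-216 in H1975 cells became 0 without a variance trend, with the line fitted alone and at an adjusted p below 0.01, and 1 (KRT7) with the replicate number as a block, within the line or over both. Without 1 array the count ran from 0 to 3. For the difference of the SK-216 changes, 2 became 0 without a trend and 1 (KRT18) with either replicate block, with median centring and at 0.01, and ran from 1 to 2 without 1 array. With quantile normalization the 2 were KRT18 and KRT7, the KRT7 value being -0.47 (limma adjusted p = 0.0488). In PC-9 cells the count with SK-216 was 0 throughout. The 12 called between tolerant lines became 7 with either filter on dim probe sets, which tests 16 or 15 keratins in place of 45. They became 7 at 0.01, and ran from 9 to 12 without 1 array. The 12 after SK-216 ran from 8 to 13, and from 9 to 13 without 1 array. Without H1975 SK-216 replicates 1 or 2 or H1975 tolerant replicate 3 the SK-216 count in H1975 cells was 0. No called value changed sign. Over 135 results of 27 named genes, the 2934 alternative values lost a call 143 times and gained one 32 times, and 79 values of results with no call changed sign, 69 of them without 1 array. Same-numbered arrays did not deviate together: the correlations lay between -0.09 and 0.03, so the numbers are not taken to pair the samples. The block within lines ended the calls of KRT8 with SK-216 in H1975 cells (limma adjusted p = 0.0778) and in the difference (0.115), of SPRR2D (0.0542), of the JUP difference (0.0619), of KRT16 (0.0687) and KRT85 (0.0522) in tolerant cells and of KRT76 (0.0567) and KRT83 (0.0530) after SK-216, and made that of KRT13 after SK-216 (0.0476). The block over both lines ended both KRT8 calls (0.0513 and 0.0788).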
